A study of Homo sapiens with 6 samples.

Results

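The collagen chain genes were followed across 6 RNA-seq libraries of K562, a human line that grew out of a chronic myelogenous leukaemia and has erythroid traits. A row of the deposited count tables was taken as a member when its symbol had the form COL, a number, A and a number. This gave 44 of 23710 gene symbols. The 3 treated libraries came from cells given 20 µM 3FM-dC together with 2 mM THU for 24 h, and are called 3FM-dC libraries here. The 3 control libraries came from cells given the same amount of DMSO, the solvent of both compounds, for 24 h. No group received 3FM-dC or THU alone, so their effects cannot be told apart. All cells were at passages 13 to 16 in medium with serum, and the study's stated purpose was to see how 3FM-dC acts on gene expression as a whole. The series title calls the molecule an activator of TET2, an enzyme that oxidises methylated cytosine. Nothing in the labels says that replicates were separate cultures, so p-values rest on how far these libraries scatter, and that scatter may be technical.

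Collagens are extracellular proteins built from 3 chains wound into a triple helix, and each chain gene encodes 1 of these chains. The chains are hydroxylated and folded in the endoplasmic reticulum with dedicated enzymes and chaperones before secretion, and a chain normally can leave the cell only in a trimer with the right partners. Fibrillar collagens form the cables of connective tissue, type IV forms the network of basement membranes, and type VI forms beaded filaments close to cell surfaces. Blood cell lines such as K562 grow in suspension and are not known as a main source of collagen.

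Depth in genes was 18408826 to 22750278 counts a library, so that a floor of 3 counts stood for 0.136 to 0.168 CPM (counts scaled to a common library size of 1000000, with TMM factors). Intervals and floors cover counting error only. All 8 K562 and erythroid markers were expressed, and all 8 were lower in 3FM-dC libraries, as were 32.7% of all genes tested, led by KLF1, the erythroid transcription factor, with 44.8 ± 3.48 CPM in 3FM-dC libraries and 172 ± 6.09 CPM in DMSO libraries (SD, n = 3 each). The embryonic globin HBE1 had 1324 ± 20.6 CPM in 3FM-dC libraries and 2665 ± 23.7 CPM in DMSO libraries, the embryonic globin HBZ 121 ± 5.33 CPM in 3FM-dC libraries and 309 ± 12.7 CPM in DMSO libraries, and the fetal globin HBG2 830 ± 12.5 CPM in 3FM-dC libraries and 1600.0 ± 53.2 CPM in DMSO libraries. None of 8 fibroblast markers passed the count filter, and FAP, LUM, PDGFRA, POSTN and THY1 were at 0 in all 6 libraries. The summed level of that list was 0.281 to 0.922 CPM in 3FM-dC libraries and 0.454 to 0.887 CPM in DMSO libraries. Of 8 endothelial markers, CDH5 was at 0 and only PECAM1 was tested, and the list summed to 2.29 to 4.15 CPM in 3FM-dC libraries and 3.66 to 5.77 CPM in DMSO libraries. PECAM1, an adhesion molecule of endothelium and blood cells, had 2.18 ± 1.03 CPM in 3FM-dC libraries and 4.01 ± 0.992 CPM in DMSO libraries, a call that was lost without 3FM-dC replicate 2 (adjusted p = 0.0676) or DMSO replicate 2 (adjusted p = 0.0819). Of 5 chondrocyte markers in the files, COMP, MATN3 and SOX9 were at 0, MATN1 was tested and not called, and the sums were 0.797 to 1.33 CPM in 3FM-dC libraries and 1.46 to 1.61 CPM in DMSO libraries. Of 8 epithelial markers, GRHL2, KRT14, KRT5 and KRT7 were at 0, and the list summed to 62.1 to 64.4 CPM in 3FM-dC libraries and 102 to 103 CPM in DMSO libraries. Nearly all of that sum was EPCAM, an adhesion molecule, with 62.0 ± 1.52 CPM in 3FM-dC libraries and 102.5 ± 0.708 CPM in DMSO libraries. ESRP1, an epithelial splicing factor, had 65 counts over the 3FM-dC libraries and 1 over the DMSO libraries, a ratio of 60.8 with a 95% counting interval of 10.5 to 2440, and the single count was in DMSO replicate 1. The part of these differences in the collagen results was not tested.

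Promoters of 3 kinds recur in the results and are shown here, since the files hold no DNA methylation values and the letters give only the setting. They come from RefSeq on GRCh38.p14, while the authors' build was hg19, per the submitters' processing notes. Each runs 5′ to 3′ with CG dinucleotides, the usual site of cytosine methylation in vertebrates, in capitals. The COL6A2 stretch is the 250 bases before the RefSeq start at chr21:46097862-46098111 on the plus strand, the COL6A3 stretch the 250 bases before its start at chr2:237414165-237414414 on the minus strand. These are the chains with the largest rises. The third is the 126 bases between the starts of COL4A1 and COL4A2, which point away from each other, at chr13:110307158-110307283, read on the plus strand. It is shown because 1 of these genes had counts in every library and the other had none.

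COL6A2: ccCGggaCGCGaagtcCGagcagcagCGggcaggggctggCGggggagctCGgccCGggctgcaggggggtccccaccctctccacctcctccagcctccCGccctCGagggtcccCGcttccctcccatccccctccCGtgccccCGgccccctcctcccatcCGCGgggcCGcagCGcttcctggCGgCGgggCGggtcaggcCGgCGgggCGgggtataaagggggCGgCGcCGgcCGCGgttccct
COL6A3: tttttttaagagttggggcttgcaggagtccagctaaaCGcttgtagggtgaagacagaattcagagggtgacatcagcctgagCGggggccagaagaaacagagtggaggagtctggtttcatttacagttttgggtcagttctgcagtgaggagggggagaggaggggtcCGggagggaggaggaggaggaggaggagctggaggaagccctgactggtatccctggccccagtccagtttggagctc
COL4A1-COL4A2: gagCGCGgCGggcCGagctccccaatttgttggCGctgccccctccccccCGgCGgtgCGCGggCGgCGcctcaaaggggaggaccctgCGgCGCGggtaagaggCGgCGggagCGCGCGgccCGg

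The COL6A2 stretch holds 28 CG dinucleotides and the COL6A3 stretch 3. Over the full window of 300 bases, 250 before and 50 after the start, COL6A2 had 36 CG and COL6A3 had 4. Of 35116 RefSeq promoters, 12.7% held at least as many CG as COL6A2 and 75.5% at least as many as COL6A3, and the median was 14. The chains with the largest rises therefore differ widely in CG content. The stretch between COL4A1 and COL4A2 holds 20 CG.

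Promoters were listed for 32 of the 44 chains, among them 8 of those called expressed below. The 10 promoters of expressed chains held 4 to 46 CG with a median of 36.5. The 29 promoters of chains with only stray counts held 1 to 45 with a median of 16, and the 5 promoters of chains with no count held 1 to 45 with a median of 12. Both high and low CG content thus occurred in every class. The letters of 4 short motifs were searched on both strands. The GC box GGGCGG was in 7 of the 10 promoters of expressed chains and 45% of all promoters, and the TATA box TATAAA in 2 of 10 and 11.5%. COL18A1 and COL5A1 had 2 promoters each among the 10, all with GGGCGG, and those of COL5A1 nearly coincide. In chains with stray counts GGGCGG was in 15 of 29 promoters and TATAAA in 4. In chains with no count each was in 2 of 5. The AP-1 motif TGANTCA, in 7.71% of all promoters, and the C/EBP-ATF motif TGATGNAA, in 3.62%, were in none of the 10. COL6A2 held GGGCGG and TATAAA and COL6A3 held none of these letters. These are descriptions of the windows and say nothing about binding.

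A chain was called expressed when it passed edgeR's filter for low counts, which needs at least 0.51 CPM, the size of 10 counts in a library of median depth, in at least 3 libraries. By this rule 13 chains were expressed, 26 had between 1 and 57 counts over the 6 libraries and are called trace chains, and 5 had no count at all. Of the 13, 9 passed in every library of both groups. COL6A1, COL6A2 and COL1A1 passed only through the 3FM-dC libraries and COL25A1 only through the DMSO libraries. The filter thus favoured a difference in these 4, and the counts of calls that follow are descriptions. The quasi-likelihood test of edgeR, adjusted over all 12339 genes tested by the Benjamini-Hochberg method with a threshold of 0.05, called 6 chains higher and 4 lower and made no call for 3. Calls in either direction thus took 76.9% of the expressed chains, and 66.4% of all genes tested. Chains called higher were 46.2% against a background of 33.8%, and chains called lower 30.8% against 32.7%. The groups did not overlap for 9 chains, or 69.2%, against 70.0% of all genes. The share of chains that moved was therefore near that of all genes. The median log2 fold change was 0.23 over the 13 chains and 0.01 over all genes. Scaling by total counts in place of TMM gave 5048 genes higher and 3189 lower, where TMM gave 4167 and 4031, and a median of 0.10 over all genes, but the same 6 and 4 chain calls in number.

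**Figure D1:**
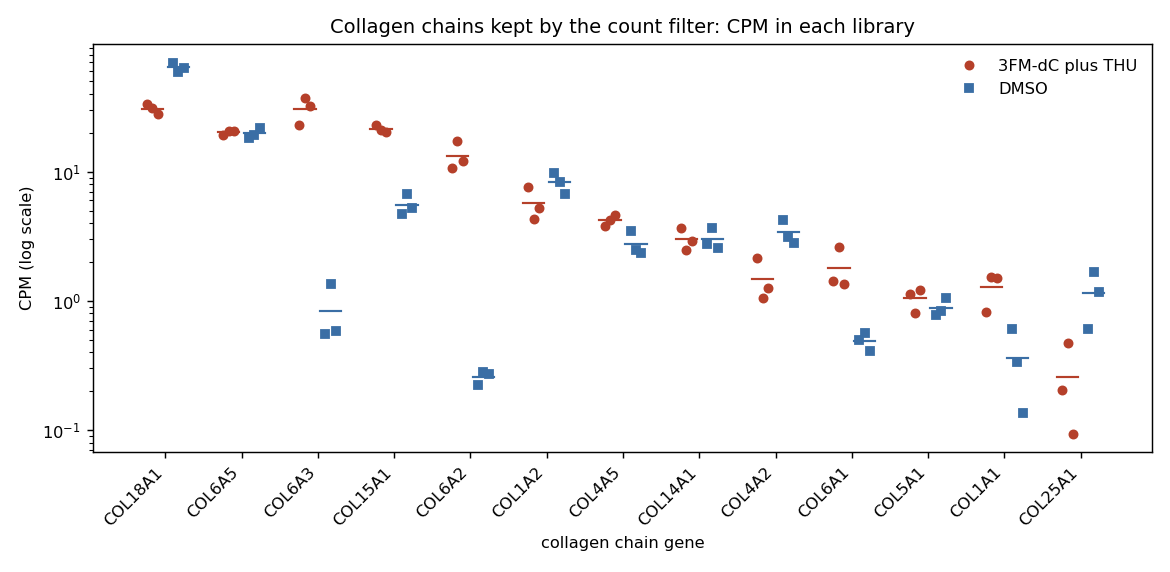
CPM of the 13 expressed collagen chains in each library on a log axis, with 3FM-dC libraries as circles, DMSO libraries as squares and group means as bars. COL6A3 and COL6A2 stand far apart between the groups, COL15A1, COL6A1, COL1A1 and COL4A5 are higher and COL18A1, COL4A2 and COL25A1 lower in 3FM-dC libraries, and COL6A5, COL14A1, COL5A1 and COL1A2 overlap.

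**Figure D2:**
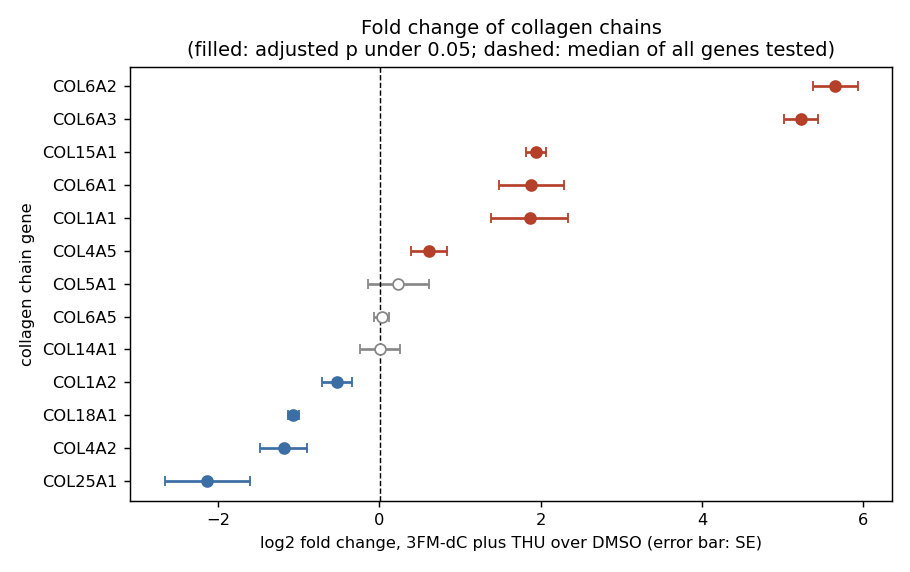
Log2 fold change of 3FM-dC over DMSO libraries for each expressed chain, with its standard error as a bar and filled points where the adjusted p was under 0.05. The values run from 5.65 for COL6A2 to -2.14 for COL25A1, and the dashed line marks the median of all genes at 0.01.

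The largest changes were in type VI collagen. Its core trimer joins the chains COL6A1, COL6A2 and COL6A3, and COL6A5 and COL6A6 encode chains that resemble COL6A3 and can take its place. COL6A3 had 22.8, 37.1 and 32.0 CPM in the 3FM-dC libraries, from 445, 780 and 682 counts, and 0.555, 1.35 and 0.590 CPM in the DMSO libraries, from 10, 24 and 13 counts. COL6A2 had 10.7, 17.3 and 12.0 CPM in the 3FM-dC libraries, from 208, 363 and 257 counts, and 0.222, 0.280 and 0.272 CPM in the DMSO libraries, from 4, 5 and 6 counts. For both chains every 3FM-dC library lay far above every DMSO library, and 3FM-dC replicate 2 was the highest. COL6A3 was 37.5-fold higher (log2 fold change 5.23 ± 0.21 SE, edgeR adjusted p = 2.12e-18) and COL6A2 50.3-fold higher (5.65 ± 0.28, edgeR adjusted p = 1.60e-16). By size of rise COL6A2 was 38th and COL6A3 55th of the 12339 genes tested. They were the 2 chains called higher with a rise of at least 10-fold, which 1.38% of all genes tested showed.

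COL6A1, which lies on chromosome 21 like COL6A2, moved less. It had 1.43, 2.62 and 1.36 CPM in the 3FM-dC libraries and 0.499, 0.560 and 0.408 CPM in the DMSO libraries, from 28, 55 and 29 counts in 3FM-dC libraries and 9, 10 and 9 in DMSO libraries. The groups did not overlap, and COL6A1 was 3.69-fold higher (log2 fold change 1.88 ± 0.40 SE, edgeR adjusted p = 0.000172). COL6A5 had 19.2, 20.8 and 20.8 CPM in the 3FM-dC libraries and 18.2, 19.3 and 21.9 CPM in the DMSO libraries. The groups overlapped throughout, and the log2 fold change of COL6A5 was 0.03 ± 0.09 SE (edgeR adjusted p = 0.810). COL6A6 had 6 counts over the 3FM-dC libraries and 4 over the DMSO libraries. The beaded filament class as a whole summed to 66.1 ± 11.8 CPM in 3FM-dC libraries and 21.5 ± 1.83 CPM in DMSO libraries (SD, n = 3 each).

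The balance of the type VI chains was thus different in the groups. The ratio of COL6A2 to COL6A1 counts was 7.43, 6.6 and 8.86 in the 3FM-dC libraries and 0.444, 0.5 and 0.667 in the DMSO libraries, with no overlap. The ratio of COL6A3 to COL6A2 counts was 2.14, 2.15 and 2.65 in the 3FM-dC libraries and 2.50, 4.80 and 2.17 in the DMSO libraries, where the groups overlap and COL6A2 rests on 4 to 6 counts a library. Levels of different genes can be compared only per length, for which the exonic lengths of GENCODE v29 were used by symbol. Each length merges the exons of all transcripts of a gene, 19.6 kb for COL6A3 and 5.39 kb for COL6A2. A chain with many exons outside its main transcript therefore reads too low on this scale. On this scale COL6A2 had 2.47 CPM per kb in 3FM-dC libraries and 0.0479 in DMSO libraries, and COL6A3 1.56 in 3FM-dC libraries and 0.0423 in DMSO libraries. COL6A1 had 0.338 CPM per kb in 3FM-dC libraries and 0.0916 in DMSO libraries, and COL6A5 2.11 in 3FM-dC libraries and 2.07 in DMSO libraries. In the DMSO libraries COL6A5 was thus the most abundant type VI chain, while in the 3FM-dC libraries COL6A2 and COL6A5 differed by less than the SD of COL6A2, which was 0.649, and COL6A1 was the lowest of the 4 expressed chains in the 3FM-dC libraries.

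The multiplexins moved in opposite directions. COL15A1 and COL18A1 encode the chains of type XV and type XVIII, basement membrane collagens that carry sugar chains, and the end of the COL18A1 chain is released as endostatin. COL15A1 had 22.99, 20.9 and 20.2 CPM in the 3FM-dC libraries and 4.71, 6.72 and 5.26 CPM in the DMSO libraries. COL18A1 had 33.6, 30.9 and 27.8 CPM in the 3FM-dC libraries and 69.9, 59.5 and 63.8 CPM in the DMSO libraries. Neither chain's groups overlapped. COL15A1 was 3.84-fold higher (log2 fold change 1.94 ± 0.13 SE, edgeR adjusted p = 6.76e-14). COL18A1 was 2.09-fold lower (-1.07 ± 0.07, edgeR adjusted p = 1.80e-13). The ratio of COL15A1 to COL18A1 counts was 0.685, 0.675 and 0.727 in the 3FM-dC libraries and 0.0674, 0.113 and 0.0826 in the DMSO libraries. Per length COL15A1 had 3.21 CPM per kb in 3FM-dC libraries and 0.837 in DMSO libraries, and COL18A1 3.61 in 3FM-dC libraries and 7.55 in DMSO libraries. COL18A1 was thus the more abundant of the pair in DMSO libraries. In 3FM-dC libraries the values lay close, with an SD of 0.338 for COL18A1 and 0.217 for COL15A1, and their order is not settled.

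COL18A1 shares 1401 exonic bases, 16.4% of its length, with the folate carrier gene SLC19A1 on the opposite strand. SLC19A1 had 48.9 ± 7.86 CPM in 3FM-dC libraries and 112 ± 4.31 CPM in DMSO libraries (SD, n = 3 each), a log2 fold change of -1.20 (edgeR adjusted p = 8.65e-15). The kit keeps strand, but the strand setting of the counting is not given in the sources used here. Reads from the shared stretch therefore cannot be told apart, and the COL18A1 value carries this limit.

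Fibrillar collagen was low in both groups and its type I chains changed in opposite directions. COL1A1 and COL1A2 encode the chains of type I collagen, which usually joins 2 COL1A1 chains with 1 COL1A2 chain. COL1A1 had 16, 32 and 32 counts in the 3FM-dC libraries and 11, 6 and 3 in the DMSO libraries, or 0.819, 1.52 and 1.499 CPM in the 3FM-dC libraries and 0.610, 0.336 and 0.136 CPM in the DMSO libraries. The groups did not overlap, but the gap between 3FM-dC replicate 1 and DMSO replicate 1 was small. COL1A1 was 3.64-fold higher (log2 fold change 1.86 ± 0.48 SE, edgeR adjusted p = 0.00116). It was 2.69-fold higher without DMSO replicate 3 and 5.52-fold higher without DMSO replicate 1. COL1A2 had 7.63, 4.28 and 5.25 CPM in the 3FM-dC libraries and 9.76, 8.35 and 6.67 CPM in the DMSO libraries. Here 3FM-dC replicate 1 lay above DMSO replicate 3, and the log2 fold change was -0.53 ± 0.18 SE (edgeR adjusted p = 0.0131). The COL1A2 call was lost without 3FM-dC replicate 2 (adjusted p = 0.0730), without DMSO replicate 1 (0.0928) and with a minimum fold change of 1.2 (0.0668).

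The ratio of COL1A2 to COL1A1 counts was 9.31, 2.81 and 3.50 in the 3FM-dC libraries and 16.0, 24.8 and 49.0 in the DMSO libraries. It was lower in every 3FM-dC library than in any DMSO library, where COL1A1 rests on 3 to 11 counts a library. Since COL1A1 passed the filter only through the 3FM-dC libraries, this is a description. Per length COL1A2 had 0.513 CPM per kb in 3FM-dC libraries and 0.740 in DMSO libraries, and COL1A1 0.131 in 3FM-dC libraries and 0.0367 in DMSO libraries. COL5A1, a chain of type V collagen that is built into type I fibrils, had 1.13, 0.809 and 1.22 CPM in the 3FM-dC libraries and 0.776, 0.840 and 1.04 CPM in the DMSO libraries. Its groups overlapped, with a log2 fold change of 0.23 ± 0.38 SE (edgeR adjusted p = 0.604). The fibrillar class summed to 9.50 ± 1.59 CPM in 3FM-dC libraries and 10.2 ± 1.68 CPM in DMSO libraries (SD, n = 3 each).

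The basement membrane network chains also split. COL4A2 normally joins COL4A1 in the most widespread type IV trimer, and COL4A5 joins COL4A3 and COL4A4, or COL4A6. COL4A2 had 2.15, 1.05 and 1.27 CPM in the 3FM-dC libraries and 4.21, 3.14 and 2.81 CPM in the DMSO libraries, without overlap. Its log2 fold change was -1.19 ± 0.29 SE (edgeR adjusted p = 0.000844). COL4A5 had 3.79, 4.24 and 4.64 CPM in the 3FM-dC libraries and 3.49, 2.47 and 2.36 CPM in the DMSO libraries. The groups lay close together without overlap, and COL4A5 was 1.53-fold higher (log2 fold change 0.61 ± 0.22 SE, edgeR adjusted p = 0.0179). This call was lost without 3FM-dC replicate 3 (adjusted p = 0.0754), without DMSO replicate 2 (0.0631), without DMSO replicate 3 (0.0842) and with a minimum fold change of 1.2 (0.0621).

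The usual partners of these chains were silent or near it. Each pair of type IV genes starts head to head from a short shared stretch. COL4A1 had 0 counts in all 6 libraries, while COL4A2, 126 bases away, had 91 counts over the 3FM-dC libraries and 194 over the DMSO libraries. COL4A6, 379 bases from the start of COL4A5, had 2 counts over the 3FM-dC libraries and 1 over the DMSO libraries, where COL4A5 had 262 over the 3FM-dC libraries and 159 over the DMSO libraries. COL4A4 and COL4A3, whose starts lie 418 bases apart, had 8 and 7 counts over the 3FM-dC libraries and 1 and 2 over the DMSO libraries. In each of these pairs with an expressed chain nearly all counts came from the gene on the plus strand.

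Of the chains outside these classes, 2 were expressed. COL14A1, a fibril-associated chain, had 3.69, 2.48 and 2.91 CPM in the 3FM-dC libraries and 2.77, 3.70 and 2.59 CPM in the DMSO libraries. The groups overlapped, with a log2 fold change of 0.00 ± 0.25 SE (edgeR adjusted p = 0.988). COL25A1, a chain that spans the cell membrane, had 4, 10 and 2 counts in the 3FM-dC libraries and 11, 30 and 26 in the DMSO libraries. On the CPM scale the groups did not overlap, with 0.205, 0.476 and 0.0937 CPM in the 3FM-dC libraries against 0.610, 1.68 and 1.18 CPM in the DMSO libraries. COL25A1 was 4.39-fold lower (log2 fold change -2.14 ± 0.53 SE, edgeR adjusted p = 0.000827). It was 3.32-fold lower without 3FM-dC replicate 3 and 7.58-fold lower without 3FM-dC replicate 2.

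The 26 trace chains gave 248 counts over the 3FM-dC libraries and 110 over the DMSO libraries. More counts in 3FM-dC than in DMSO libraries were found for 22 of them, or 84.6%, while 68.6% of the 5442 symbols with counts under the filter did so. For 7 chains the DMSO libraries had no count, and for 0 the 3FM-dC libraries had none. The matching shares of the 5442 symbols are not given here, so the 7 and 0 are descriptions. The number of chains with at least 1 count was 33 in each 3FM-dC library and 29, 26 and 22 in the DMSO libraries. Among all symbols the same number was 15696, 16043 and 15916 in the 3FM-dC libraries and 14698, 14757 and 14902 in the DMSO libraries, so more symbols had counts in every 3FM-dC library.

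Just under the filter, 8 chains had at least 20 counts in all, a limit chosen after their values were seen. COL5A2, a fibrillar type V chain, had 22, 11 and 6 counts in the 3FM-dC libraries and 3, 5 and 2 in the DMSO libraries. COL16A1, a fibril-associated chain, had 5, 10 and 5 counts in the 3FM-dC libraries and 0, 0 and 1 in the DMSO libraries, a ratio of 18.7 with a 95% counting interval of 2.99 to 776. Without the filter edgeR called these 2 higher (adjusted p = 0.0186 for COL5A2 and 0.00354 for COL16A1) and 0 trace chains lower. These 2 were 7.69% of the trace chains. Among all 17781 genes tested without the filter, 25.5% were higher and 23.5% lower. COL9A1, of cartilage type IX, had 17 counts over the 3FM-dC libraries and 3 over the DMSO libraries, a ratio of 5.30 with an interval of 1.53 to 28.3, and did not pass (adjusted p = 0.0572). COL7A1, the anchoring fibril chain of skin, had 38 counts over the 3FM-dC libraries and 18 over the DMSO libraries. The cartilage chains COL11A2, COL9A3 and COL9A2 had 33, 16 and 13 counts over the 3FM-dC libraries and 24, 13 and 7 over the DMSO libraries. The fibril-associated chain COL21A1 had 12 counts over the 3FM-dC libraries and 10 over the DMSO libraries.

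The 5 chains at 0 in all 6 libraries were COL4A1, COL11A1, COL13A1, COL17A1 and COL19A1. They come from 4 structural classes, with COL13A1 and COL17A1 both spanning the membrane. A count of 0 allows up to 3 counts, or 0.136 to 0.168 CPM a library. COL3A1, which with the type I chains makes up much of fibroblast collagen, had 4 counts over the 3FM-dC libraries and 1 over the DMSO libraries. COL2A1, the main cartilage chain, had 3 counts over the 3FM-dC libraries and 1 over the DMSO libraries.

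**Figure D3:**
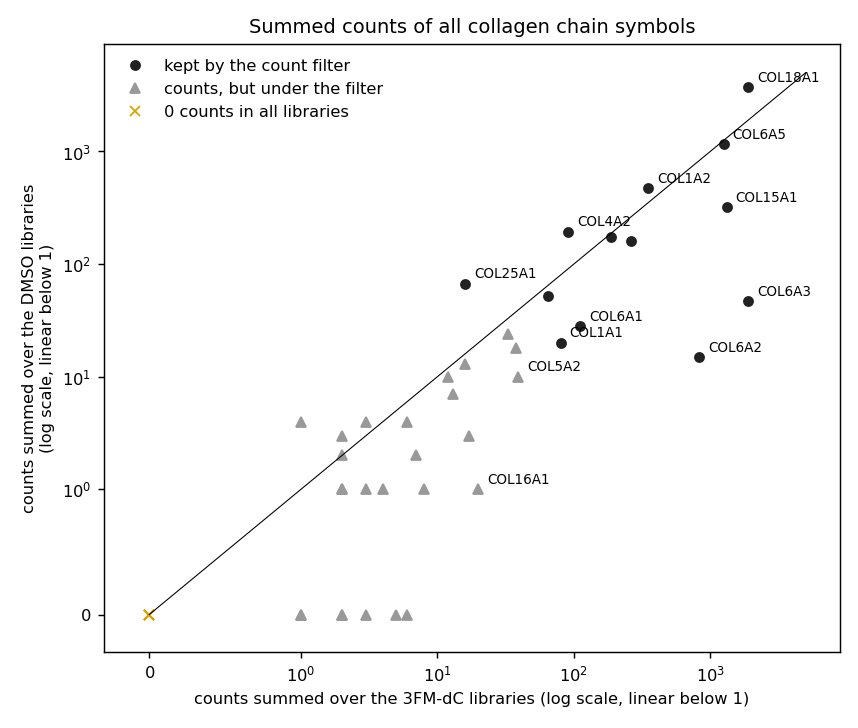
Counts of each of the 44 collagen chains summed over the 3 libraries of a group, 3FM-dC on the horizontal and DMSO on the vertical axis, both on a log scale that is linear below 1, with a line at equal counts. COL6A3 and COL6A2 lie far below the line with 1907 and 828 counts in 3FM-dC libraries, COL18A1 and COL25A1 lie above it, and the 5 chains with no count coincide at 0.

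Summed over all chains, collagen CPM before TMM scaling was 137.8, 154.4 and 138.7 in the 3FM-dC libraries and 115, 106.8 and 107.1 in the DMSO libraries. The group means were 143.7 ± 9.34 CPM in 3FM-dC libraries and 109.6 ± 4.64 CPM in DMSO libraries (SD, n = 3 each). Every 3FM-dC library was above every DMSO library, but an exact permutation test of 3 against 3 libraries cannot go below p = 0.1. These are bulk RNA levels, in which more cells expressing a chain and more RNA per cell cannot be told apart. With TMM scaling the sums were 134.4, 148.3 and 134.8 CPM in the 3FM-dC libraries and 118.7, 110.1 and 110.6 CPM in the DMSO libraries. On that scale COL6A1, COL6A2, COL6A3, COL15A1 and COL18A1, picked after their values were seen, left 43.0, 39.6 and 41.4 CPM to the other 39 chains in the 3FM-dC libraries and 42.8, 41.7 and 40.3 CPM in the DMSO libraries. Since the 5 were picked for their change, the overlap of the remainder is a description only.

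The make-up of the collagen reads differed between the groups. COL18A1 made up 22.1% of the collagen CPM in 3FM-dC libraries and 56.9% in DMSO libraries, COL6A3 22.0% in 3FM-dC libraries and 0.733% in DMSO libraries, and COL6A2 9.57% in 3FM-dC libraries and 0.228% in DMSO libraries. COL15A1 made up 15.4% in 3FM-dC libraries and 4.92% in DMSO libraries, and COL6A5 14.6% in 3FM-dC libraries and 17.5% in DMSO libraries. These are shares of reads, in which long transcripts weigh more. By class, the multiplexins summed to 52.1 ± 4.26 CPM in 3FM-dC libraries and 70.0 ± 4.29 CPM in DMSO libraries, the basement membrane network to 5.98 ± 0.275 CPM in 3FM-dC libraries and 6.24 ± 1.44 CPM in DMSO libraries, and the fibril-associated chains to 4.37 ± 0.775 CPM in 3FM-dC libraries and 3.61 ± 0.711 CPM in DMSO libraries (SD, n = 3 each). The membrane-spanning class summed to 0.274 ± 0.223 CPM in 3FM-dC libraries and 1.16 ± 0.536 CPM in DMSO libraries.

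**Figure D4:**
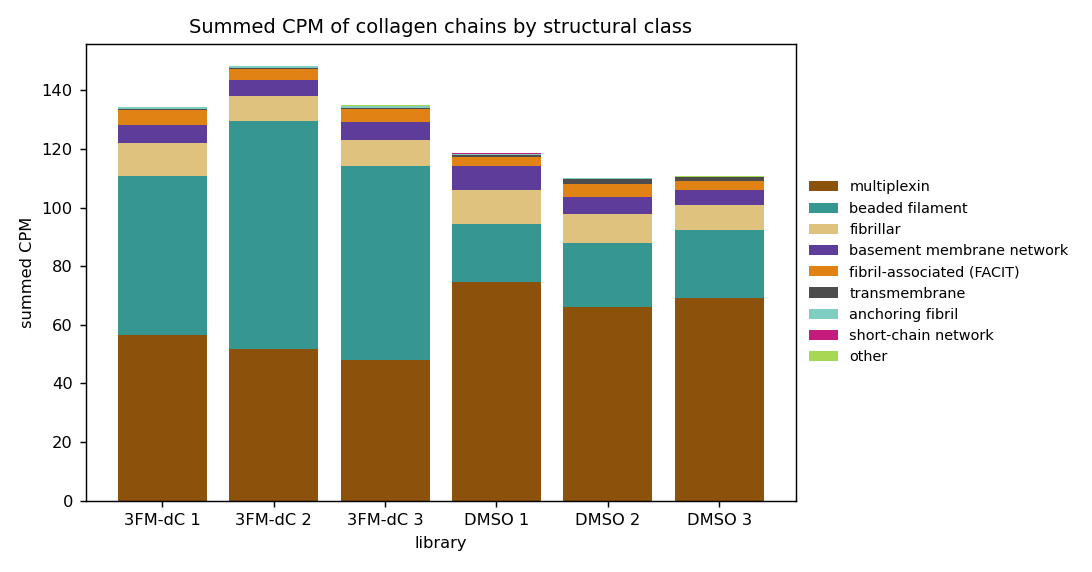
Summed CPM of the collagen chains in each library, stacked by structural class. The beaded filament class is 54.2 to 77.8 CPM in 3FM-dC libraries and 19.6 to 23.2 CPM in DMSO libraries, and the multiplexin class 48.1 to 56.6 CPM in 3FM-dC libraries and 66.2 to 74.6 CPM in DMSO libraries.

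The genes that make and secrete collagen moved in both directions. Of 30 listed genes 27 were tested, 12 were higher, 6 lower and 9 not called, so that 66.7% were called where 66.4% of all genes tested were. The list's median log2 fold change was 0.10 where all genes had 0.01. GLT25D2, a collagen galactosyltransferase also named COLGALT2, had 4764, 5362 and 5474 counts in the 3FM-dC libraries and 841, 878 and 1000 in the DMSO libraries. That is 252 ± 6.94 CPM in 3FM-dC libraries and 47.1 ± 1.95 CPM in DMSO libraries, a log2 fold change of 2.42 (edgeR adjusted p = 6.90e-26). SEC24D, a coat protein of the vesicles that carry procollagen, had 67.5 ± 2.01 CPM in 3FM-dC libraries and 33.0 ± 2.83 CPM in DMSO libraries (log2 fold change 1.03). P4HB, a subunit of prolyl 4-hydroxylase, had 775 ± 9.40 CPM in 3FM-dC libraries and 545 ± 15.5 CPM in DMSO libraries (0.51). P4HA1, the catalytic subunit, had 59.8 ± 2.48 CPM in 3FM-dC libraries and 42.7 ± 1.95 CPM in DMSO libraries (0.49). SERPINH1, the collagen chaperone HSP47, had 180 ± 2.39 CPM in 3FM-dC libraries and 124 ± 3.81 CPM in DMSO libraries (0.54). CREB3L2, a transcription factor of the secretory pathway, had 151 ± 7.72 CPM in 3FM-dC libraries and 95.1 ± 6.17 CPM in DMSO libraries (0.67). All of these were called higher. Of the 6 called lower, PLOD1 and GLT25D1 had the smallest p. PLOD1 had 92.15 ± 4.19 CPM in 3FM-dC libraries and 131.8 ± 4.42 CPM in DMSO libraries (-0.52). GLT25D1 had 185 ± 13.4 CPM in 3FM-dC libraries and 235 ± 2.52 CPM in DMSO libraries (-0.35). PLOD2, a lysyl hydroxylase, had 1.56 ± 0.174 CPM in 3FM-dC libraries and 1.14 ± 0.365 CPM in DMSO libraries and was not called (edgeR adjusted p = 0.274).

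Of 18 processing and cross-linking genes 9 were tested, 3 were higher, 4 lower and 2 not called, with a median of -0.01. Called genes were 77.8% of those tested, against 66.4% of all genes. This share is a description, since LOXL4 and LOXL2, both called higher, passed the count filter only through the 3FM-dC libraries. TGM2, a transglutaminase that cross-links matrix proteins, had 101 ± 5.998 CPM in 3FM-dC libraries and 173 ± 2.37 CPM in DMSO libraries (log2 fold change -0.78). ADAMTS3, which removes procollagen N-propeptides, had 34.8 ± 1.41 CPM in 3FM-dC libraries and 54.5 ± 2.88 CPM in DMSO libraries (-0.65). BMP1, which removes C-propeptides, had 30.4 ± 0.860 CPM in 3FM-dC libraries and 22.2 ± 0.391 CPM in DMSO libraries (0.46). FURIN, a proprotein convertase, had 159 ± 1.23 CPM in 3FM-dC libraries and 190 ± 1.78 CPM in DMSO libraries (-0.26), a change that did not pass with a minimum fold change of 1.2 (adjusted p = 0.529). LOX, a lysyl oxidase that cross-links collagen, was not tested, with 9 counts over the 3FM-dC libraries and 12 over the DMSO libraries.

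Of 14 collagen receptors 7 were tested, 3 were higher, 2 lower and 2 not called, with a median of -0.02. Called receptors were 71.4% of those tested, against 66.4% of all genes. This share is a description, since OSCAR, called higher, passed the count filter only through the 3FM-dC libraries. OSCAR, an immune receptor that binds collagen, had 54, 106 and 64 counts in the 3FM-dC libraries and 0, 3 and 2 in the DMSO libraries (log2 fold change 5.29 ± 0.51 SE, edgeR adjusted p = 3.65e-10), and its fold of 39.0 was 64.5 without DMSO replicate 2. Without DMSO replicate 1 the log2 fold change of OSCAR was 4.77. GP6, the platelet collagen receptor, had 50.4 ± 3.46 CPM in 3FM-dC libraries and 28.4 ± 0.871 CPM in DMSO libraries (0.83). MRC2, which takes up collagen for breakdown, had 33.3 ± 1.18 CPM in 3FM-dC libraries and 48.3 ± 1.42 CPM in DMSO libraries (-0.54). CD36, a scavenger receptor that also binds collagen, had 0.596 ± 0.0781 CPM in 3FM-dC libraries and 2.74 ± 0.602 CPM in DMSO libraries (-2.19). ITGB1, the shared subunit of the collagen-binding integrins, had 264 ± 2.58 CPM in 3FM-dC libraries and 237 ± 5.62 CPM in DMSO libraries (0.16), which did not pass with a minimum fold change of 1.2. The integrin partner ITGA2 had 6 counts in each group and was not tested. DDR1, a receptor tyrosine kinase for collagen, had 63.6 ± 1.58 CPM in 3FM-dC libraries and 64.6 ± 2.47 CPM in DMSO libraries (edgeR adjusted p = 0.727).

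Breakdown genes were tested for 12 of 22, with 7 higher, 2 lower and 3 not called and a median of 0.61. Called genes were 75.0% of the 12, against 66.4% of all genes, and genes called higher 58.3% against 33.8%. Since MMP19, TIMP4 and CTSK, all called higher, passed the count filter only through the 3FM-dC libraries, these shares and the median are descriptions. TIMP1, an inhibitor of matrix metalloproteinases and not itself a protease, had 241 ± 17.9 CPM in 3FM-dC libraries and 99.7 ± 4.85 CPM in DMSO libraries (log2 fold change 1.27). The lysosomal proteases CTSL1, with 119 ± 8.12 CPM in 3FM-dC libraries and 64.6 ± 3.07 CPM in DMSO libraries (0.88), and CTSB, with 154 ± 6.84 CPM in 3FM-dC libraries and 113 ± 1.26 CPM in DMSO libraries (0.45), were higher. MMP19, a matrix metalloproteinase, had 2.37 ± 0.0963 CPM in 3FM-dC libraries and 0.517 ± 0.220 CPM in DMSO libraries (2.15). MMP9, which cuts denatured collagen, was not tested, with 18 counts over the 3FM-dC libraries and 12 over the DMSO libraries. TIMP4, another inhibitor, singled out after its values were seen, had 41 counts over the 3FM-dC libraries and 0 over the DMSO libraries, at least 12.8-fold higher against a floor of 3 counts over the DMSO group. With TIMP4 at that bound the list's median stayed 0.61.

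Of 35 matrix proteins other than collagens, 11 were tested, 7 were higher, 2 lower and 2 not called, with a median of 1.12. Called genes were 81.8% of the 11, against 66.4% of all genes, and genes called higher 63.6% against 33.8%. TNC, LAMB3, LAMC1 and THBS1, all called higher, passed the count filter only through the 3FM-dC libraries. The shares and median of this list are therefore descriptions. FN1, fibronectin, a matrix protein to which collagens bind, had 3186, 3698 and 3600 counts in the 3FM-dC libraries and 557, 610 and 628 in the DMSO libraries. That is 169 ± 6.49 CPM in 3FM-dC libraries and 31.2 ± 2.85 CPM in DMSO libraries, a log2 fold change of 2.45 (edgeR adjusted p = 5.05e-24). The laminin chain LAMB1 had 50.1 ± 3.37 CPM in 3FM-dC libraries and 23.04 ± 0.221 CPM in DMSO libraries (1.12). Lower were the basement membrane proteoglycan AGRN, with 135 ± 13.3 CPM in 3FM-dC libraries and 207 ± 2.41 CPM in DMSO libraries (-0.62), and the laminin chain LAMA5, with 73.4 ± 4.204 CPM in 3FM-dC libraries and 95.5 ± 2.41 CPM in DMSO libraries (-0.38). SPARC, a collagen-binding protein, had 7.34 ± 0.316 CPM in 3FM-dC libraries and 6.11 ± 1.44 CPM in DMSO libraries (edgeR adjusted p = 0.170). The 5 pathway lists thus held genes that moved either way beside the collagen chains.

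**Figure D5:**
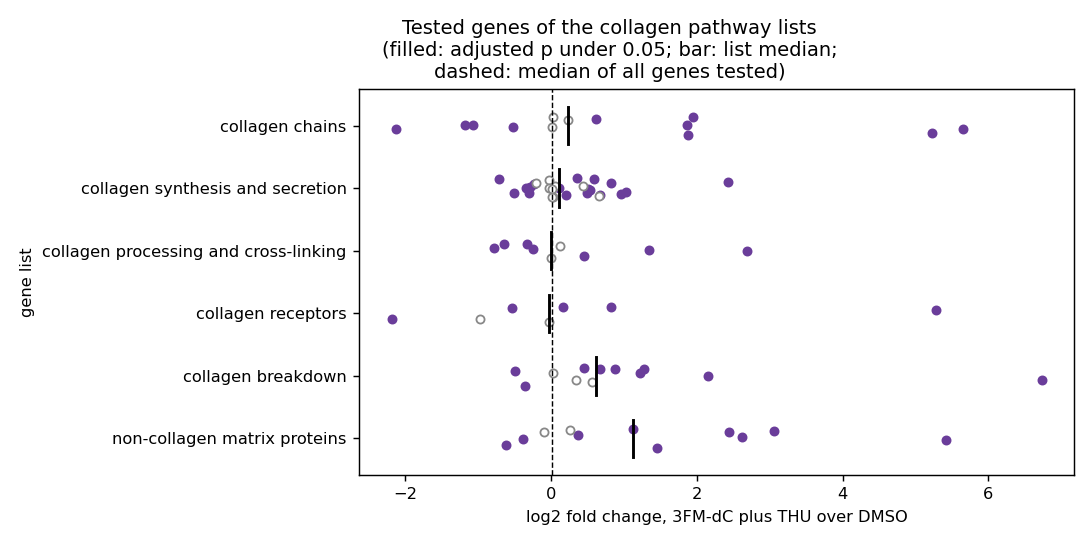
Log2 fold change of 3FM-dC over DMSO libraries for every tested gene of the collagen chains and the 5 pathway lists, filled where the adjusted p was under 0.05, with a bar at each list's median and a dashed line at the median of all genes. List medians run from -0.02 for receptors to 1.12 for other matrix proteins, and the point farthest right is TIMP4, whose fitted value depends on the prior count since no DMSO library held a count.

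The authors' deposited table gives fold changes of a group B over a group A that its header does not name. It lists 39 of the 44 chains, the number with a count here, and holds 10 with an adjusted p under 0.05, of which 7 have a fold above 1 and 3 below 1. Of these calls 9 were also made here, in the same direction if B is the 3FM-dC group. The share of all genes called in the authors' deposited table is not given here, so these counts are descriptions. The folds of the authors' deposited table were 51.1 for COL6A2 and 36.6 for COL6A3. COL16A1, under the filter here, has a fold of 21.0 and an adjusted p of 0.0229 in the authors' deposited table. COL1A2, called lower here, has an adjusted p of 0.114 in the authors' deposited table.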

How the data were processed

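Each library's deposited table holds the authors' raw read counts per gene symbol, used as they stood. The authors' own comparison table holds a fold (ratio of 2 groups) and an adjusted p-value per gene, per the file headers. STAR, Cufflinks, DESeq2 and the build hg19 are listed, per the submitters' processing notes, without roles or versions. Not given in the sources used here were the counting program, its strand setting and its annotation. The labels' protocols name a directional mRNA kit. The 5 rows that name no gene were left out of library sizes. Of these, reads in no feature were 10.9% to 13.1% and ambiguous reads 2.27% to 2.38% of the deposited counts.

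Counts were tested with edgeR 4.0.16 (R 4.3.3, limma 3.58.1) by the quasi-likelihood test with TMM scaling, treatment as the only term and filterByExpr at a minimum count of 10, with Benjamini-Hochberg adjustment over 12339 genes at 0.05. Standard errors are the log2 fold change over the root of F. The procedure was tested on simulated data. Alternatives were DESeq2 1.42.0, total counts, other filters, a minimum fold change of 1.2 (glmTreat), a replicate block and leaving out each library. All replicate pairs differed by more than counting noise (chi-square per degree of freedom 2.38 to 6.22).

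Named were all chains that passed the filter, chains with at least 20 counts under it, the 4 called genes of each list with the smallest p, and SERPINH1, P4HA1, P4HB, PLOD2, LOX, ITGA2, ITGB1, DDR1, SPARC and MMP9. PLOD1 and GLT25D1 were added to show genes of the synthesis list that were called lower. The members and lists were chosen with earlier results of these data known.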

Additional observations from a re-analysis of the deposited data

How the results depend on the processing

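The calls of 6 chains higher and 4 lower became 8 and 4 with DESeq2 (all genes 26.9% higher and 26.3% lower of 15026 tested) and with no count filter (25.5% and 23.5% of 17781). They were 5 and 3 with a filter at 1 CPM in 3 libraries (34.5% and 33.8% of 11628) and with a minimum fold change of 1.2 (21.4% and 17.2% of 12339), and 6 and 4 with total counts (40.9% and 25.8%). Without each library in turn, 5 to 7 chains were higher, 3 to 4 lower and 14 to 16 expressed, and the collagen share differed by 28.65 to 36.95 CPM. Of all genes tested in those fits, 30.9% to 33.1% were higher and 30.2% to 32.1% lower. With no count filter 39 chains were tested, since every chain with a count then entered, and with the minimum fold change 4765 genes were called in all. COL6A2, COL6A3, COL15A1, COL18A1, COL6A1 and COL4A2 kept their call under all 12 alternatives, and COL1A1 and COL25A1 under the 11 that tested them. For COL6A2, COL6A1, COL1A1 and COL25A1, which passed the main filter only through the libraries of a single group, this is a description. Over these alternatives the log2 fold change was 5.42 to 5.79 for COL6A2 and 5.01 to 5.72 for COL6A3. No named gene changed direction while called.

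The replicate block left 6 chains higher and 4 lower and 8050 genes called in all, where 8198 were called without it. With the block, 33.2% of all genes tested were higher and 32.1% lower. Deviations from the group means had correlations over genes of -0.00189, -0.000613 and -0.0674 for libraries with the same number. For libraries with different numbers they were -0.0377 to 0.0422. These values cannot decide whether libraries with the same number shared a culture or day. Chains under the filter rest on few counts, and differences there were often not detectable at this depth.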
